A study of Mus musculus with 8 samples.

Results

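Heat shock proteins and J-domain cochaperones were followed in the left ventricle of mice with heart muscle overexpression of a microRNA, miR-100. The members were the rows of the expression table whose gene symbol began with Hsp or Dnaj, apart from Hspg2, a matrix proteoglycan, and Hspbap1, a binding partner that is no heat shock protein. This gave 69 rows and 69 genes of 22206 rows in all. By size class there were 8 Hspb, 43 Dnaj, 12 Hspa and 2 Hsp90 genes and the pair Hspd1 and Hspe1, and Hsph1 and Hspbp1 stood outside the classes. The symbols Hspa8, Hsp90ab1, Dnaja1 and Dnajb5, which name further genes of these families, had no row and were not analysed here.

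RNA of 8 male C57/BL6J mice aged 8 weeks was measured on 8 Affymetrix arrays, with 4 wild type and 4 miR-100 hearts, and no mouse was treated. The miR-100 mice carried a Myh6-Cre transgene, which is active in heart muscle cells, and 1 copy of a floxed miR-100 allele (miR100flox/+). The labels give the controls as wild type and name no Cre allele for them, so effects of Cre and of miR-100 cannot be told apart. The level of miR-100 itself was not checked here. The tissue was bulk ventricle, in which fewer cells of a type and less RNA per cell cannot be told apart.

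Molecular chaperones bind unfolded protein and guide it to its folded state. Small heat shock proteins (Hspb) hold unfolding proteins without using ATP, whereas Hsp70 proteins (Hspa) bind and release clients in an ATP cycle that J-domain proteins (Dnaj) start and exchange factors complete. Hsp90 proteins finish the folding of kinases, receptors and myosin, and Hspd1 with Hspe1 forms the folding chamber of mitochondria. In the heart, several small heat shock proteins sit at the sarcomere, where the load on contractile proteins is high. The transcription factor Hsf1 drives many of these genes under heat or oxidative stress through a DNA sequence called the heat shock element.

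The mature 5′ arm of the overexpressed microRNA is shown because it defines the intervention. It is 22 bases long, lies at chr9:41531437-41531458 on the plus strand (GRCm38.p6, RefSeq), and its seed, bases 2 to 8, is in capitals.
mmu-miR-100-5p: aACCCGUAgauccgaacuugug

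The arrays resembled each other, with correlations between 0.988 and 0.993 over all rows. Wild type replicate 2 and miR-100 replicate 2 stood at opposite ends of the first principal component, at -38.2 and 30.8. The other arrays lay between -13.0 and 13.5. This component held 21.7% of the variance and kept the groups apart. Every wild type array lay at -3.49 or lower on it, and every miR-100 array at 8.96 or higher. Wild type replicate 2 also held the lowest of the 8 values in 21 of 69 member rows, which is 30.4%, against 16.7% of all rows. Markers of heart muscle were present on every array, with a mean log2 signal over 6 genes of 18.57 to 18.65 in wild type and 18.57 to 18.67 in miR-100 hearts. Most of them lie near the highest value of the table, 19.93, where differences between groups may be compressed, and Ryr2, the marker farthest below it, differed by 0.21. The list mean over 3 atrial markers ran from 5.76 to 5.99 in wild type and from 5.40 to 5.85 in miR-100 hearts. All 3 were lower on average in miR-100 hearts. The atrial light chain Myl7 was dim, at 4.23 ± 0.12 and 3.83 ± 0.48 (log2 signal, SD, n = 4 each).

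No member passed an adjusted p of 0.05 in limma (0 of 69), while 31 of all 22206 rows did, a background of 0.140%. The largest differences, given throughout as miR-100 minus wild type on the log2 scale, were 0.83 for Hsp90aa1, the stress-inducible cytosolic Hsp90, 0.75 for Hspb3, a small heat shock protein of muscle, and -0.59 for Hspa1a, the stress-inducible Hsp70. The lowest adjusted p of any member was 0.160, for Hspb3. At an unadjusted p under 0.05 there were 7 members (10.1%), against 7.73% of all rows. Of these, 4 were higher in miR-100 hearts and 3 lower, against 3.55% and 4.17% of all rows. The lower ones included Hspa1a and its neighbour Hspa1b, which may not be separate measurements.

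Wild type and miR-100 values were fully separated in 5 members, or 7.25%, against 4.54% of all rows. Hspb3, Hsp90aa1, Dnajc11 and Dnajc1 had all miR-100 values above all wild type values, where 2.21% of all rows did, and Hspa1a had all of them below, where 2.33% of all rows did. The first is 4 of 69 members against 490 of 22206 rows, and the second 1 of 69 against 518. The count at an unadjusted p under 0.05 was 3 (4.35% of members) without wild type replicate 1 and without miR-100 replicate 3, where 7.27% and 7.28% of all rows passed. It was 9 (13.0%) without wild type replicate 4, where 8.29% of all rows passed, so the members' share lay below or above that of all rows depending on 1 array.

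Small differences were as common among the members as over the table. The difference was above 0 in 42 and below 0 in 27 members, with a median of 0.04 against -0.015 over all rows, and 53 of 69 lay within 0.25 of 0, as did 17139 of all 22206 rows. The 95% confidence interval of 36 members (52.2%) lay wholly between -0.5 and 0.5, against 43.6% of all rows. A change of 1.41-fold or more in array signal lay outside those intervals. This does not bound the RNA change where a row is very dim, such as Dnajc22 at percentile 0.86 of row means. The same holds near the highest value of the table, as for Hspb7 and Hspa5 at percentiles 99.9 and 99.7, where differences may be compressed. For the other 33 members the arrays could not set that bound.

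**Figure D1:**
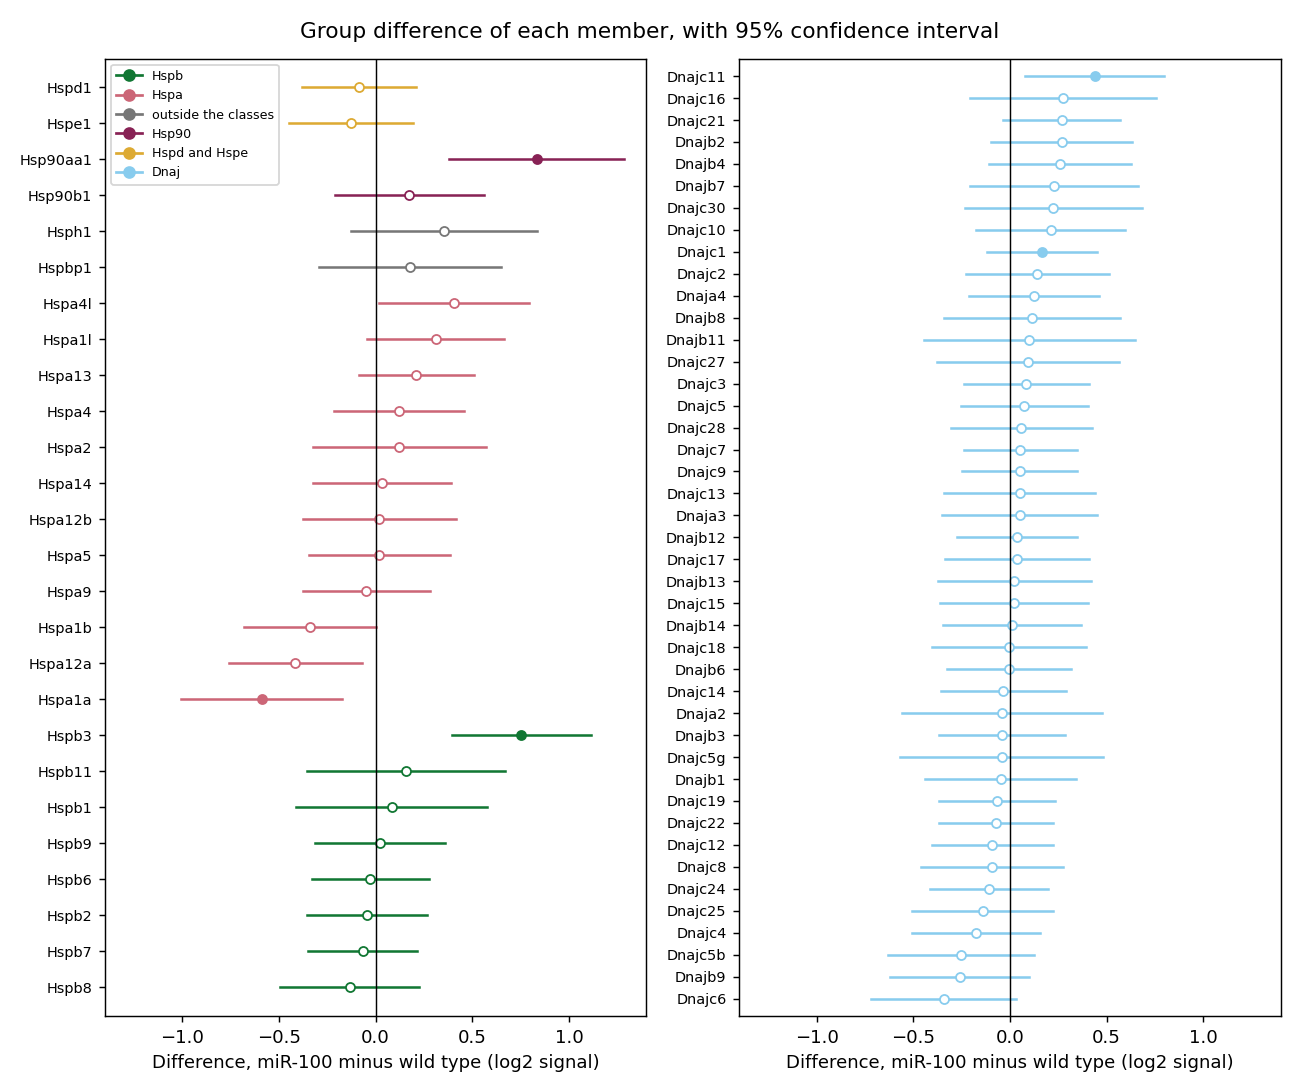
Difference between miR-100 and wild type hearts for each of the 69 members (horizontal axis, log2 signal), with 95% confidence intervals from limma; colours mark the size class, and filled points mark members whose 4 and 4 values did not overlap. Hsp90aa1 at 0.83, Hspb3 at 0.75 and Hspa1a at -0.59 lie farthest from 0, and most Dnaj genes lie within 0.25 of it.

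Hsp90 proteins were represented by a cytosolic and an endoplasmic reticulum form. Hsp90aa1 read 12.55, 11.75, 12.53 and 12.88 in wild type replicates 1 to 4 and 13.27, 13.29, 13.39 and 13.09 in the miR-100 hearts. The 4 miR-100 hearts lay close together above all wild type hearts, and wild type replicate 2 was by far the lowest. The means were 12.43 ± 0.48 and 13.26 ± 0.12 (SD, n = 4 each), a 1.78-fold ratio, with a difference of 0.83 (SE 0.21, 95% confidence interval 0.38 to 1.29, limma adjusted p = 0.222). Without wild type replicate 2 the difference was 0.61, and over the 8 fits that each left out an array the adjusted p ran from 0.138 to 0.446.

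Hsp90b1, the endoplasmic reticulum form that folds integrins and receptors, read 16.07, 16.54, 15.99 and 15.86 in wild type and 16.40, 16.45, 16.36 and 15.95 in miR-100 hearts. Here wild type replicate 2 was the highest array of all 8 and the groups overlapped. Its difference was 0.18 (95% confidence interval -0.21 to 0.56). The class median of these 2 genes, 0.50, therefore describes a pair with unequal values.

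**Figure D2:**
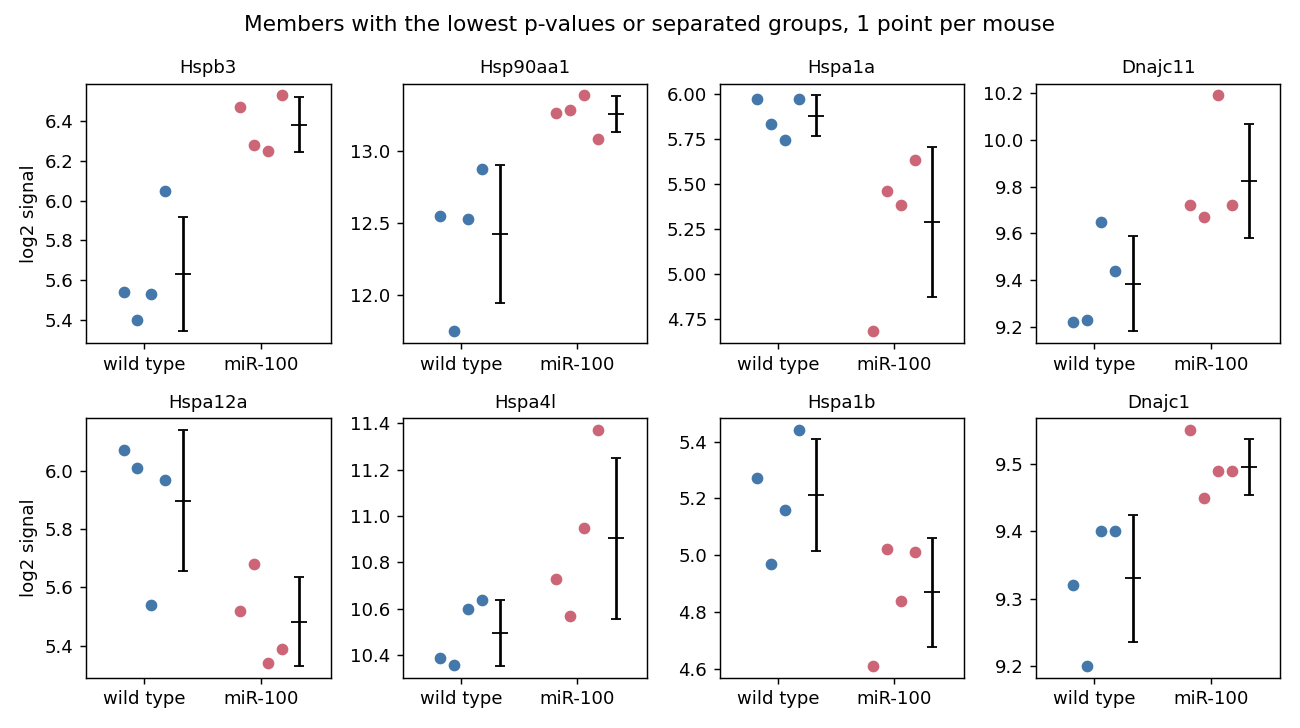
Log2 signal (vertical axis, scale set per gene) in each of the 8 mice for the 8 members with an unadjusted p under 0.05 or with no overlap between groups; points are mice, and the bar gives the group mean and SD. In Hspb3, Hsp90aa1, Dnajc11 and Dnajc1 every miR-100 point lies above the wild type points, and in Hspa1a every one lies below.

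Among small heat shock proteins, Hspb3 had the largest difference, and those of the other heart muscle members lay nearer to 0. Hspb3, which pairs with Hspb2 in muscle, read 5.54, 5.40, 5.53 and 6.05 in wild type and 6.47, 6.28, 6.25 and 6.53 in miR-100 hearts. All miR-100 hearts lay above the highest wild type heart, replicate 4. The means of 5.63 ± 0.29 and 6.38 ± 0.14 (SD, n = 4 each) gave a 1.68-fold ratio and a difference of 0.75 (SE 0.17, 95% confidence interval 0.39 to 1.11, limma adjusted p = 0.160). Over the fits without an array its difference ran from 0.68 to 0.89, and its adjusted p from 0.0588 without wild type replicate 4 to 0.380 without miR-100 replicate 1. Its row mean lay at percentile 53.2 of all row means.

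Its partner gene Hspb2 read 9.41, 9.11, 9.55 and 9.35 in wild type and 9.36, 9.40, 9.19 and 9.29 in miR-100 hearts, so the groups overlapped throughout. The difference of Hspb2 was -0.045 (95% confidence interval -0.36 to 0.27). Next to Hspb2 in the genome lies Cryab, the alpha-B crystallin gene, which is a small heat shock protein by another name. Cryab read 17.83, 17.90, 18.12 and 17.99 in wild type and 18.00, 17.99, 18.08 and 17.76 in miR-100 hearts, and its difference was -0.0025.

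Hspb7, a filamin-binding small heat shock protein of the heart, had 18.90 ± 0.09 and 18.83 ± 0.04 (log2 signal, SD, n = 4 each). Hspb6, a target of protein kinase A in muscle, had 18.31 ± 0.13 and 18.28 ± 0.13. Their row means lay at percentiles 99.9 and 99.8 of all row means, near the highest value of the table. Their intervals ran from -0.35 to 0.22 and from -0.33 to 0.28.

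Hspb8, which works with the exchange factor Bag3 in the disposal of damaged sarcomere proteins, read 14.43, 13.88, 14.40 and 14.43 in wild type and 14.18, 13.91, 14.25 and 14.26 in miR-100 hearts. Its difference was -0.135, the lowest of the class, and -0.27 without wild type replicate 2, the array that lay apart from the other wild type hearts. Hspb1, the heat-inducible Hsp27 homologue, had a wide spread in both groups, with 10.52 to 11.26 in wild type and 10.46 to 11.47 in miR-100 hearts, and a difference of 0.08. Hspb9, a testis gene, was dim at 3.29 ± 0.18 and 3.31 ± 0.20, and Hspb11, an intraflagellar transport protein in spite of its symbol, differed by 0.16, a value that was 0.011 when wild type replicate 1 was left out and 0.41 when wild type replicate 4 was. The 8 genes split into 4 above and 4 below 0 with a median of -0.0025.

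The upstream windows of Hspb3, and below of Hspa1a, Hspa1b and Hspe1, are shown because they hold letters of the heat shock element, given in capitals. The windows of Dnajc1, Hspa4l and Hspa12a held 0 matches and are not printed, and no window of Dnajc11 or Hsp90aa1 was in the table. The motif searched was GAANNTTC or TTCNNGAA, each of which reads the same on both strands, and matches may overlap. Each window holds the 250 bases before and the 50 after the start of the gene, 300 bases in all, as RefSeq gives it on GRCm38.p6. The Hspb3 window, at chr13:113663627-113663926 on the minus strand, holds 1 match, whose first base is at -224 from the start.
Hspb3: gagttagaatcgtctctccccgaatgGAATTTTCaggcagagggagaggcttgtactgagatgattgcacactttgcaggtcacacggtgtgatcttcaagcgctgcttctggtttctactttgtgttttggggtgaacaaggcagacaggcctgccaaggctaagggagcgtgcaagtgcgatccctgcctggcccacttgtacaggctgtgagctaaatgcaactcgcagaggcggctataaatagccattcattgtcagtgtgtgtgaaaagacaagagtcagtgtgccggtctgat

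The inducible Hsp70 genes Hspa1a and Hspa1b were lower on average in miR-100 hearts without passing over all rows. The differences of the organelle forms Hspa5 and Hspa9 lay near 0. Hspa1a read 5.97, 5.83, 5.74 and 5.97 in wild type and 4.68, 5.46, 5.38 and 5.63 in miR-100 hearts. All 4 miR-100 values lay below the wild type values, and miR-100 replicate 1 lay far below the rest. The means were 5.88 ± 0.11 and 5.29 ± 0.42 (SD, n = 4 each), a difference of -0.59 (SE 0.19, 95% confidence interval -1.01 to -0.17, limma adjusted p = 0.404). Without miR-100 replicate 1 it was -0.39.

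Hspa1b, the neighbouring copy of Hspa1a, read 5.27, 4.97, 5.16 and 5.44 in wild type and 4.61, 5.02, 4.84 and 5.01 in miR-100 hearts. The groups overlapped through wild type replicate 2, and miR-100 replicate 1 was again the lowest. The difference was -0.34 (SE 0.16, limma adjusted p = 0.647). These genes encode nearly the same protein and are uncertain as separate measurements, since the probes of either row may bind both transcripts. Their row means of 5.58 and 5.04 lay at percentiles 48.6 and 41.7 of all row means. The array medians ran from 5.70 to 5.74, so both genes were dim beside Hspa5 and Hspa9.

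Their upstream windows are shown because the copies differ so little there. Without gaps, 4 of 300 bases differ, so 98.7% are identical, and both hold 1 match to the heat shock element, with its first base at -104 from the start. The windows lie at chr17:34972107-34972406 and chr17:34959189-34959488, both on the minus strand.
Hspa1a: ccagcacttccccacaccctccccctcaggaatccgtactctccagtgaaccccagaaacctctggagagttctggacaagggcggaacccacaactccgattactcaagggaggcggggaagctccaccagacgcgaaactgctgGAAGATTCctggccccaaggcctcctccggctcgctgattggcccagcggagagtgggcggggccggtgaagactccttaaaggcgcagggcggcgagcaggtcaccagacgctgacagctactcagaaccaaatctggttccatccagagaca
Hspa1b: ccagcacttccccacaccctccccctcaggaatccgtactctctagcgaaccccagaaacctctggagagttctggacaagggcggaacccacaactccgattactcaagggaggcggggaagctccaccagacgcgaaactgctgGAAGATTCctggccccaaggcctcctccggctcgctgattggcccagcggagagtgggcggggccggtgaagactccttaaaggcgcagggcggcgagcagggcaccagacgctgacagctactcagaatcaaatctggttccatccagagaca

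Hspa1l, the third gene of this cluster and mainly a testis gene, read 5.07, 4.70, 4.65 and 4.98 in wild type and 5.23, 5.46, 5.0 and 4.95 in miR-100 hearts. Its difference of 0.31 had the opposite sign to that of its neighbours and did not pass (limma adjusted p = 0.707). Hspa12a, a distant Hsp70 relative, read 6.07, 6.01, 5.54 and 5.97 in wild type and 5.52, 5.68, 5.34 and 5.39 in miR-100 hearts, a difference of -0.415 (limma adjusted p = 0.523). Wild type replicate 3 lay among the miR-100 values, and the other wild type hearts lay above them. The endothelial relative Hspa12b differed by 0.02.

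Hspa5, the endoplasmic reticulum Hsp70 known as BiP, had 17.86 ± 0.28 and 17.88 ± 0.17 (log2 signal, SD, n = 4 each), so that the groups differed by 0.02 with an interval from -0.34 to 0.38. Hspa9, the mitochondrial Hsp70 that pulls imported proteins into the matrix, had 14.61 ± 0.19 and 14.56 ± 0.16, or -0.05 with an interval from -0.38 to 0.28. Hspa13, a microsomal form, differed by 0.21, and the ribosome-associated Hspa14 and the testis-enriched Hspa2 by 0.03 and 0.12. Of the 12 Hspa genes 4 had an unadjusted p under 0.05 (33.3%, against 7.73% of all rows), namely Hspa1a, Hspa1b, Hspa12a and Hspa4l. Hspa1a and Hspa1b may not be separate measurements, so this count may be too high. Hspa1b also stayed under that threshold in only 3 of the 8 fits without an array. Over the class, 8 lay above and 4 below 0, with a median of 0.03, and the median was 0.14 without wild type replicate 2.

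Hsp110-type exchange factors, which release ADP from Hsp70, all had differences above 0 without passing. Hspa4l read 10.39, 10.36, 10.60 and 10.64 in wild type and 10.73, 10.57, 10.95 and 11.37 in miR-100 hearts. The highest values belonged to miR-100 replicates 4 and 3, and miR-100 replicate 2 overlapped with wild type. The difference was 0.41 (SE 0.18, limma adjusted p = 0.618) and 0.25 without miR-100 replicate 4. Hsph1, which is strongly heat-inducible, read 9.78, 9.39, 10.35 and 9.83 in wild type and 9.87, 10.25, 9.95 and 10.69 in miR-100 hearts.

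The spread of Hsph1 was wide in both groups, and its difference of 0.35 had a 95% confidence interval of -0.13 to 0.83. Without miR-100 replicate 4 it was 0.19 and without wild type replicate 3 it was 0.52. Hspa4, the constitutive form, had 14.79 ± 0.22 and 14.91 ± 0.15 (log2 signal, SD, n = 4 each). Hspbp1, an exchange factor of another fold, differed by 0.18 (95% confidence interval -0.29 to 0.65).

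The mitochondrial chaperonin genes Hspd1 and Hspe1, which lie head to head, were close between groups. Hspd1, which encodes the Hsp60 ring subunit, read 15.46, 15.37, 15.30 and 15.32 in wild type and 15.19, 15.15, 15.32 and 15.44 in miR-100 hearts. Hspe1, which encodes the Hsp10 lid, read 11.01, 10.91, 11.30 and 11.25 in wild type and 10.96, 11.14, 11.02 and 10.84 in miR-100 hearts. The groups overlapped in both genes. The differences were -0.09 and -0.13, with 95% confidence intervals of -0.38 to 0.21 and -0.45 to 0.19.

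The region between the pair is shown because both genes start from it. The Hspe1 window and 1 of the 2 windows of Hspd1 share 285 bases and hold the same 3 overlapping matches to the heat shock element. The other Hspd1 window holds 0 matches, and 0.256% of all windows hold 3 or more. The window is given in the direction of Hspe1, at chr1:55087898-55088197 on the plus strand.
Hspe1: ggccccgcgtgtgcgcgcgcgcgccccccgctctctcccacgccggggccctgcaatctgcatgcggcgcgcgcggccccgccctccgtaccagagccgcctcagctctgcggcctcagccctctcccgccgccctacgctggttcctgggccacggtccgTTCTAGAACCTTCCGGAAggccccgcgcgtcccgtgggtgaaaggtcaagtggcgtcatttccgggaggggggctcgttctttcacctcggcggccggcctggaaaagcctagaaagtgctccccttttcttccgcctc

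J-domain proteins deliver clients to Hsp70 and start ATP hydrolysis, and their letter class reflects which other domains they carry. Of 43 genes, 26 had differences above 0 and 17 below, with a median of 0.04. Only Dnajc11 had an unadjusted p under 0.05, which is 2.33% of the class against 7.73% of all rows, and 35 lay within 0.25 of 0. None of the class passed over all rows (0 in limma).

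Dnajc11, a protein of the mitochondrial outer membrane linked to the organisation of cristae, read 9.22, 9.23, 9.65 and 9.44 in wild type and 9.72, 9.67, 10.19 and 9.72 in miR-100 hearts. The groups touched without overlapping, and miR-100 replicate 3 stood above the rest. The difference was 0.44 (SE 0.17, 95% confidence interval 0.08 to 0.80, limma adjusted p = 0.506), and 0.32 without that array. Dnajc1, an endoplasmic reticulum protein, read 9.32, 9.20, 9.40 and 9.40 in wild type and 9.55, 9.45, 9.49 and 9.49 in miR-100 hearts. Its groups did not overlap because it varied little among mice, but the difference was small at 0.165 (limma adjusted p = 0.854).

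The lowest difference of the class was that of Dnajc6, the neuronal auxilin that uncoats clathrin vesicles, at -0.34, from 3.62 ± 0.25 to 3.27 ± 0.24 (log2 signal, SD, n = 4 each). Its row mean lay at percentile 6.75 of all row means. The cysteine string proteins Dnajc5, Dnajc5b and Dnajc5g, of which the first serves synapses and the others testis, differed by 0.075, -0.25 and -0.04. The testis genes Dnajb3, Dnajb7, Dnajb8 and Dnajb13 differed by -0.04, 0.23, 0.11 and 0.02.

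Among the general cytosolic partners of Hsp70, Dnajb1, the heat-inducible Hsp40, read 7.34, 7.5, 8.09 and 7.69 in wild type and 7.35, 7.69, 7.57 and 7.82 in miR-100 hearts, a difference of -0.05. Dnajb4, a muscle-expressed relative, read 13.73, 13.45, 13.54 and 13.87 in wild type and 13.97, 13.68, 13.70 and 14.27 in miR-100 hearts. Its difference was 0.26 (95% confidence interval -0.11 to 0.62), and 0.14 without miR-100 replicate 4, the highest array. Dnajb6, whose mutation causes a limb-girdle muscular dystrophy, had 13.14 ± 0.19 and 13.14 ± 0.13 (SD, n = 4 each), with an interval of -0.32 to 0.31.

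Of the class A proteins, Dnaja2, Dnaja3 and Dnaja4 differed by -0.04, 0.05 and 0.125. Dnaja2 had the widest interval of the 3, from -0.56 to 0.48, and miR-100 replicate 2 alone reached 9.82 where the other miR-100 hearts read 8.78 to 9.01. Dnajb2, which hands clients to the proteasome, differed by 0.27, and the membrane-anchored Dnajb12 and Dnajb14 by 0.04 and 0.01. Dnajc7, which links Hsp70 and Hsp90, differed by 0.055.

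Several endoplasmic reticulum members are known targets of the unfolded protein response. Of 8 members listed for the endoplasmic reticulum, 7 had differences above 0, against 60.9% of all members and 46.5% of all rows. Their median was 0.13, with 0 at an unadjusted p under 0.05. The 8 were a chosen list, and other members may belong to this compartment. Dnajb9, a repressor of the stress sensor IRE1 and the 1 gene of the 8 below 0, read 12.73, 12.30, 12.65 and 12.82 in wild type and 12.42, 12.05, 12.55 and 12.44 in miR-100 hearts. Its difference was -0.26 (95% confidence interval -0.62 to 0.10), and -0.37 without wild type replicate 2. Dnajc3, an inhibitor of the kinase PERK, and Dnajb11, a cofactor of BiP, differed by 0.085 and 0.10, and the disulfide reductase Dnajc10 by 0.21.

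The 7 members listed as mitochondrial were close between groups apart from Dnajc11. Dnajc19, of the import motor of the inner membrane, had 13.91 ± 0.15 and 13.84 ± 0.09 (log2 signal, SD, n = 4 each), and its relative Dnajc15 differed by 0.02. Of the 7 genes in this group, 3 lay above and 4 below 0, with a median of -0.05, and 6 of their 7 intervals lay within 0.5 of 0. That group was a chosen list. Dnajc28, Dnajc30 and Dnajc4, which were not in it but may also be mitochondrial, differed by 0.06, 0.225 and -0.175. The intervals of Dnajc30, -0.23 to 0.68, and of Dnajc4, -0.51 to 0.16, reached farther than 0.5 from 0.

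Among the members named here that act on ribosomes, splicing and chromatin, all but Dnajc21 had differences within 0.25 of 0. Dnajc2, which binds nascent chains at the ribosome, and Dnajc21, which matures the large ribosomal subunit, differed by 0.14 and 0.27. The intervals of Dnajc2, -0.23 to 0.51, and of Dnajc21, -0.04 to 0.57, reached farther than 0.5 from 0. Dnajc21 read 10.51, 10.38, 10.66 and 10.66 in wild type and 10.87, 10.65, 10.84 and 10.92 in miR-100 hearts, so miR-100 replicate 2 alone lay within the wild type range. The splicing proteins Dnajc8 and Dnajc17 differed by -0.09 and 0.04, and the histone chaperone Dnajc9 by 0.05. The endosomal protein Dnajc13 differed by 0.05, and the diphthamide synthesis protein Dnajc24 by -0.11. The remaining Dnajc12, Dnajc14, Dnajc16, Dnajc18, Dnajc22, Dnajc25 and Dnajc27 ran from -0.14 in Dnajc25 to 0.275 in Dnajc16.

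**Figure D3:**
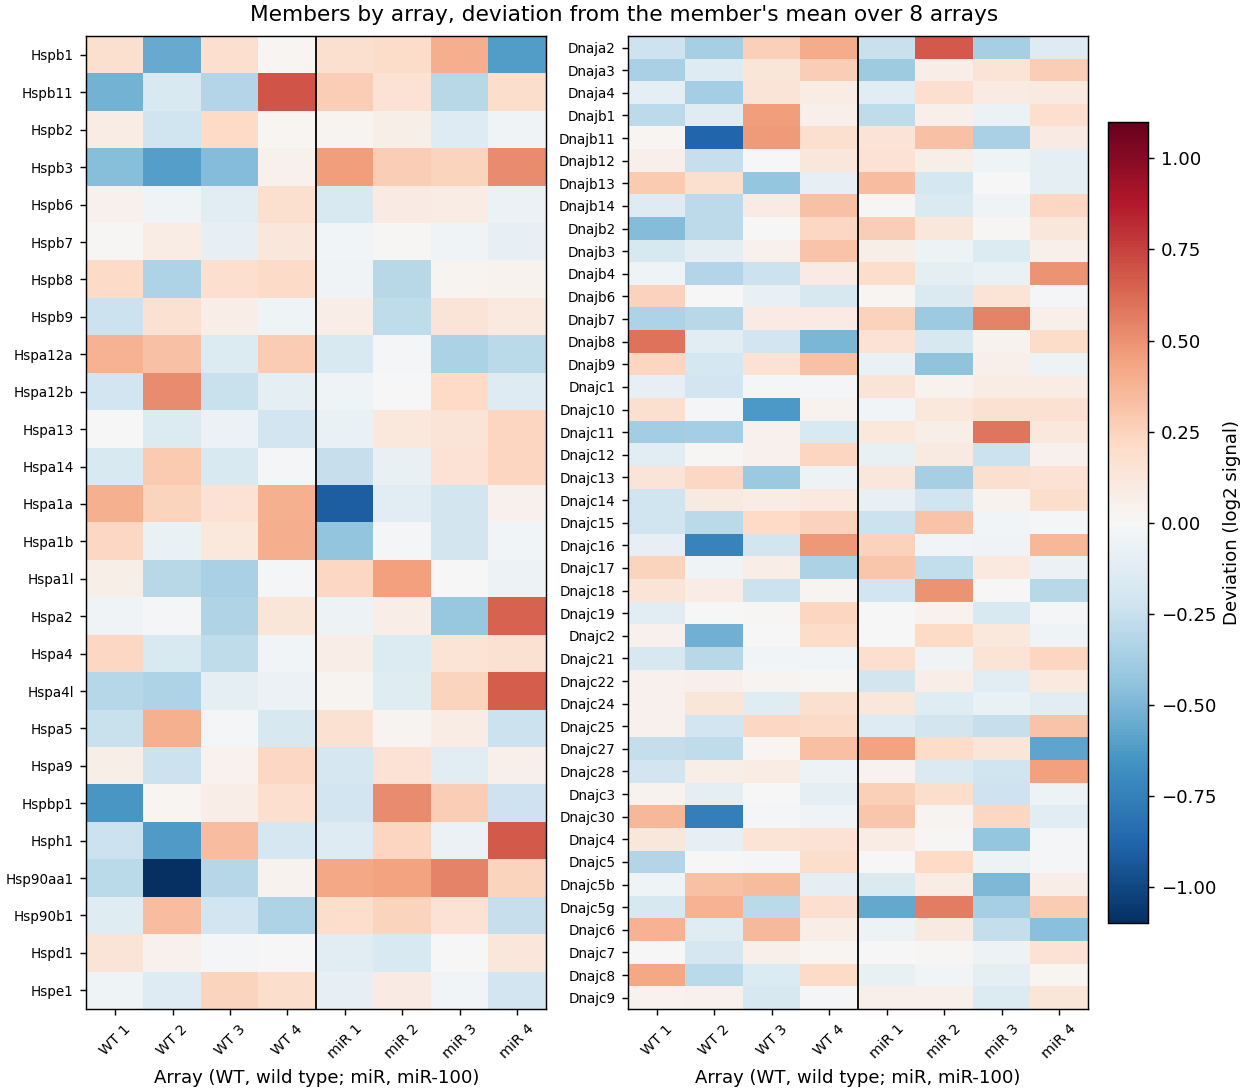
Deviation of each of the 69 members (rows) from its own mean over the 8 arrays (columns, log2 signal), with Hsp genes on the left and Dnaj genes on the right, and a line between wild type and miR-100 arrays. In the Hspb3, Hsp90aa1 and Hspa1a rows the sides of the line differ in colour apart from 1 pale cell each, and single dark cells such as Hsp90aa1 in wild type replicate 2 and Hspa1a in miR-100 replicate 1 mark arrays far from the rest.

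The cytosolic genes listed as heat-inducible did not share a direction. Of 8 listed genes 6 had rows, and Hspa8 and Dnaja1 had none. The measured genes had 3 differences above and 3 below 0 and a median of 0.02. Hspa1a and Hspa1b, both below 0, may not be separate measurements. The list held both the highest difference of all members, Hsp90aa1, and the lowest, Hspa1a. A promoter window was found in RefSeq for 57 of the 69 members, and 15 of these held a match to the heat shock element. Counted by window, 17 of 70 member windows held a match (24.3%), against 15.1% of all 32851 windows. Some matches were counted more than once, because windows of Dnajb6, of Hsph1 and of the pair Hspd1 and Hspe1 overlap. Of those 15 members, 7 had differences above 0 and 8 below, with a median of -0.005, against a median of 0.04 over the 42 members with a window and no match. Among them 3 genes held 3 matches, namely Hspd1, Hspe1 and Hsph1, with the differences given above.

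Of 70 listed cochaperones and chaperone regulators 63 had rows, and 0 passed over all rows in limma, with 0 at an unadjusted p under 0.05 and 0 without overlap between groups, against 7.73% and 4.54% of all rows. The median was 0.03, with 37 above 0 and 25 below. Hsf2, a heat shock factor that acts with Hsf1, read 9.52, 9.07, 9.29 and 9.67 in wild type and 9.54, 9.54, 9.66 and 9.47 in miR-100 hearts, a difference of 0.165. Hsf1 had no row and was not analysed here. Bag3, the partner of Hspb8, had 12.16 ± 0.13 and 12.16 ± 0.11 (log2 signal, SD, n = 4 each).

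None of the measured cochaperones of Hsp90 had an unadjusted p under 0.05 in limma, against 7.73% of all rows. Of 19 such genes 18 had rows, with 12 above and 6 below 0 and a median of 0.04, and the highest difference was 0.265 in Pih1d1, which assembles larger complexes with Hsp90, and the lowest was -0.41 in Fkbp5, a steroid receptor cochaperone. Ahsa1, the activator of the Hsp90 ATPase, differed by 0.08, and Stip1, listed with the Hsp70 cochaperones and a bridge between Hsp70 and Hsp90, by 0.04. Unc45b, the myosin chaperone of striated muscle that works with Hsp90, differed by -0.12. The 7 measured subunits of the cytosolic chaperonin had a median of -0.0075, and the 5 mitochondrial chaperones and proteases a median of 0.03.

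Other gene lists also differed between the groups, though 0 of their genes passed over all rows in limma, and their part in the differences above was not tested. Of 9 immediate early genes, which respond within minutes to handling and stress, 9 had differences below 0, with a median of -0.335 and 3 at an unadjusted p under 0.05 (33.3%, against 7.73% of all rows). Their mean log2 signal per heart ran from 7.56 to 8.23 in wild type and from 7.42 to 7.58 in miR-100 hearts. Of 9 core clock genes 8 did not overlap between groups, against 4.54% of all rows, among them Per2 at -0.885 and Arntl at 1.025. The cold-responsive RNA-binding protein gene Rbm3 differed by -0.68 and its relative Cirbp by -0.20. The labels give no time of day at which hearts were taken.

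For most other cell types the list means of markers overlapped between the groups. The list mean over 5 measured fibroblast markers ran from 9.89 to 10.19 in wild type and from 9.86 to 10.13 in miR-100 hearts, and that over 5 endothelial markers from 11.37 to 11.48 and from 11.34 to 11.51. Over 4 macrophage markers it ran from 8.92 to 9.37 and from 8.99 to 9.24. Over 5 smooth muscle and pericyte markers it ran from 9.90 to 10.22 and from 9.93 to 10.47. Of these Acta2 had 12.72 ± 0.10 and 13.84 ± 0.71 (SD, n = 4 each), with all miR-100 values above all wild type values, while Myh11 differed by -0.06. The 3 adipocyte markers were dim and all had differences above 0. Their list means, 3.80 to 4.01 and 4.03 to 4.45, did not overlap. The 1 measured red cell marker of 3, Alas2, differed by -0.20. The part of these cell type markers in the chaperone values was not tested.

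**Figure D4:**
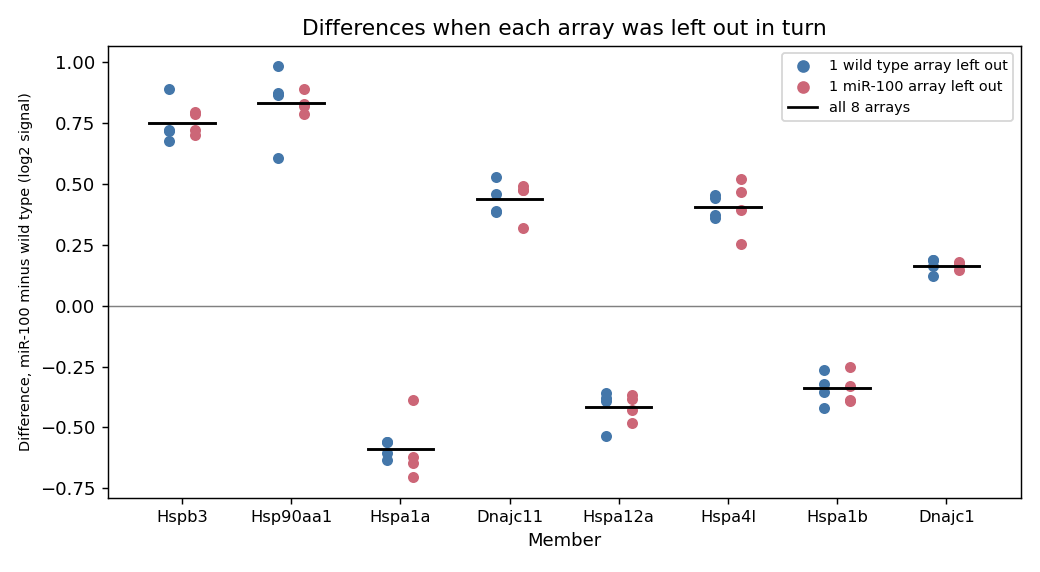
Difference between miR-100 and wild type hearts (vertical axis, log2 signal) for the 8 leading members with all 8 arrays (black lines) and with each array left out in turn (points, coloured by the group of the array left out). No point crosses 0. The 8 members were picked by these same values. Where the groups do not overlap, leaving out an array cannot change the sign. Hspa1a moves to -0.39 without miR-100 replicate 1 and Hsp90aa1 to 0.61 without wild type replicate 2.

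The spread between mice set what could be seen. The pooled SD within groups ran from 0.07 in Hspb7 to 0.46 in Dnajb11, with a median of 0.23, against 0.25 over all rows. The median interval of a member reached 0.36 to either side, and this width takes no account of the adjustment over all rows, under which even the 0.83 of Hsp90aa1 did not pass. Hsp90aa1, Hspb3 and Hspa1a each kept an unadjusted p under 0.05 in 8 of the 8 fits without an array. Dnajc11 did so in 6, Hspa12a in 5, Hspa4l in 4 and Hspa1b in 3. These members were picked by that p over all 8 arrays, so these fits are no independent support. None of the 69 passed over all rows in any fit without an array (0 in limma in each).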

How the data were processed

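Left ventricular RNA of 8 mice was measured on 1 array each. The authors deposited 1 log2 signal for each transcript cluster and array. The submitters' processing notes name Transcriptome Analysis Console 4.0. How signals were normalized and summarized, and on which build, is not given in the sources used here. Of 22206 rows in the table, 19572 carried 1 symbol in the platform annotation, 0 several and 2634 none. The 69 member Entrez numbers were all found in RefSeq (GRCm38.p6), and 0 symbols changed.

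Values were used as deposited, with no filter. Groups were compared with limma 3.58.1 in R 4.3.3 (linear model, empirical Bayes, no covariate), with Benjamini-Hochberg adjustment over all 22206 rows and a threshold of 0.05, and tested first on simulated data. The number of arrays limits the precision. Nothing states that the samples came from separate litters, so p-values measure the spread between these samples. Members and lists were chosen with earlier results of these data known. Members were named that had an unadjusted p under 0.05 or no overlap between groups, led their class, or are textbook members; further members were named after their values were seen. Same-numbered arrays did not deviate together, with correlations of -0.06 to 0.07, so the replicate numbers were not used as pairs. Percentiles of row means describe probe brightness, not the relative levels of different genes. A search for miR-100 seed sites in transcripts was not run.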

Additional observations from a re-analysis of the deposited data

Results flagged for a closer look

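Among 62 groups of 4 values for 28 named members and Hsf2, Cryab and Bag3, 3 groups held a value far from the others by Dixon's criterion, where chance flags about 1 in 20. Hspb8 read 13.88 in wild type replicate 2 against 14.40 to 14.43 in the other wild type hearts, and that array also stood apart over all rows. Dnajc11 read 10.19 in miR-100 replicate 3 against 9.67 to 9.72 in the other miR-100 hearts. Bag3 read 12.35 in wild type replicate 4 against 12.07 to 12.11 in the other wild type hearts.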

How the results depend on the processing

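Members past an adjusted p of 0.05 numbered 0 under every alternative run, as did the other chaperone genes. The alternatives were quantile normalization, median centring, array weights, an intensity trend, robust moderation, a threshold of 0.1, filters on dim rows, the replicate block and leaving out each array. Rows called over the whole table numbered 65 with an intensity trend and 65 at a threshold of 0.1, and 11 to 27 without an array. With the replicate block they numbered 21, and 6 members had an unadjusted p under 0.05; the block changed no member's call. That member count was 4 among the brighter rows (above percentile 50) and 3 to 9 without an array. The Hspa median ran from -0.026 to 0.137 without an array. Of 31 named differences, 9 close to 0 changed sign. Cryab was 0.0028 with quantile normalization and 0.0038 with median centring, and Dnajb6 was 0.0013 with median centring. Without an array, the ranges were -0.046 to 0.063 for Cryab, -0.063 to 0.080 for Dnajb6, -0.020 to 0.153 for Dnajc5, -0.058 to 0.153 for Hspa5, -0.088 to 0.30 for Hspb1, -0.153 to 0.098 for Dnajb1, -0.127 to 0.020 for Hspb2, -0.133 to 0.020 for Hspa9 and -0.074 to 0.026 for Hspb6. The cause was not tested.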
